A study of Mus musculus with 20 samples.

Results

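A set of 9 transcription factors that direct the secretory lineages of the gut (Atoh1, Neurog3, Neurod1, Spdef, Gfi1, Pax4, Pax6, Isl1 and Insm1) was followed in mouse intestinal tissue. They were chosen by gene name as printed in the array design: all 17 probes that carry 1 of the 9 symbols were taken, among 25027 named genes on the array. Transcripts were measured in 20 mice, 1 array per mouse, in 4 groups of strain C57BL6/j. The 6 Cre control mice carried the VillinCreER driver alone, and the 6 BRAFV600E mice carried in addition 1 inducible BrafV600E-LSL allele, both after 3 daily doses of 2 mg tamoxifen, with tissue taken 3 days after the last dose. The 4 Vehicle and 4 MEKi mice received 2 tamoxifen injections and then 3 injections of carrier (10% DMSO and 10% Cremophor EL in water) or of PD184352, an inhibitor of MEK, the kinase that BRAF activates. The Cre control and BRAFV600E mice were 8 to 12 weeks of age. The study states males and females in equal number for them, but Y-linked signal, described below, was not evenly split in BRAFV600E. For the MEKi and Vehicle mice only the age range over all mice used, 8 weeks to 6 months, is given. Their sex is not given separately. The mutant genotype of the Vehicle and MEKi mice comes from the study's legends and not from the sample labels. The Villin promoter drives Cre in the gut epithelium, whereas the arrays measured pieces of whole tissue, so that fewer cells of a type and less RNA per cell cannot be told apart.

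Stem cells at the crypt base give rise to absorptive enterocytes and to secretory cells, and signalling through Notch receptors sets the balance between them. Cells that escape Notch switch on Atoh1, a basic helix-loop-helix factor required for secretory fate. Downstream of it, Gfi1 and Spdef act in goblet and Paneth cells, which make mucus and antimicrobial peptides. Neurog3 starts the enteroendocrine, or hormone-producing, programme, and Neurod1, Insm1, Pax4, Pax6 and Isl1 carry it on towards particular hormones. Several of these factors also act in pancreatic islets and in neurons.

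Sequences of 5 probes that lie in coding exons are printed to show what each one can detect, with coordinates on mouse build mm9. The Neurog3 probe lies in the helix-loop-helix region. Proteins of this class bind E-boxes, the DNA motif with the letters CANNTG. The Gfi1 probe lies at the start of the coding region, in the domain through which the protein represses transcription. The first Pax6 probe lies in the part that follows the homeodomain. The other 2 Pax6 probes cross an exon junction in the paired domain: the fourth printed sequence runs into the alternative exon 5a, and the fifth skips it. Capitals mark the 10 bases that these 2 probes share before they part.
Neurog3, chr10:61596570-61596629: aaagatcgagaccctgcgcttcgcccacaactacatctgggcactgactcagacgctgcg
Gfi1, second probe, chr5:108152798-108152857: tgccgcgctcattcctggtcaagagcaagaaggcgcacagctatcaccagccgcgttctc
Pax6, probe that stands for the gene, chr2:105535591-105536463: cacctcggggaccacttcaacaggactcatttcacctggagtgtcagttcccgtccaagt
Pax6 with exon 5a, chr2:105524098-105524949: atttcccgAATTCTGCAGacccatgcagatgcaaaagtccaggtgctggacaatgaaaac
Pax6 without exon 5a, chr2:105524106-105525093: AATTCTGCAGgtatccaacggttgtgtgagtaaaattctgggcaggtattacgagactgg

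Levels are given as the log2 processed signal minus the array's 75th percentile, so a level of 0 is as bright as that percentile, and levels of different probes are not compared. Where a gene had several probes, the brightest stood for it. For all 9 factors that probe was well above background on enough arrays to be tested in both comparisons. Genes were tested with limma across all genes that passed this filter, and those with a p under 0.05 after Benjamini-Hochberg adjustment are named called.

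The arrays differed in ways the groups do not explain. The 6 Cre control arrays shared slide 1 with BRAFV600E replicates 1 and 2. The other 4 BRAFV600E arrays, replicates 3 to 6, made up slide 2. Vehicle and MEKi lay on slide 3, each in a row of its own, so that row and group cannot be told apart. On slide 2 the spike-in RNA gave a slope of 0, against 0.759 to 1.07 on slide 1. Vehicle replicate 2 stood apart: the mean level of 9 pancreatic acinar genes was 7.72 on it and −4.53 to −4.36 on the other 3 Vehicle arrays, and that of 6 islet genes was −2.83 against −5.96 to −5.51. BRAFV600E replicate 2 carried the highest mean level of proximal small intestine genes in its group, 4.52 against 1.71 to 2.66, and Vehicle replicate 2 did so in its own, 4.68 against 1.31 to 1.37. The mean level of 4 Y-linked genes split the arrays. In Cre control it was −1.30 to −1.26 on replicates 1 to 3 and −6.22 to −5.19 on replicates 4 to 6. In BRAFV600E it was −1.24 to −0.99 on replicates 1, 2, 3 and 6, but −5.82 and −4.92 on replicates 4 and 5. By this signal the sexes were not equal in number in BRAFV600E. The 6 transcripts read as ERK output, such as Etv4 and Spry4, were all called higher in BRAFV600E, and 4 of 6 were called lower in MEKi.

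In BRAFV600E against Cre control, Pax4 and Isl1, which act in enteroendocrine cells, fell, and none of the 9 factors rose. Of the 9, 2 were called lower and 0 higher by limma, and at an unadjusted p under 0.05 there were 4, all lower, against 30.1% of all genes in either direction. Among all 19034 genes tested, 6.26% were called lower and 6.18% higher. All 9 fitted changes lay below 0, as did 51.6% of all fitted changes (48.4% lay above), and the median was −0.39 on the log2 scale against −0.02 over all genes tested. The 2 called genes were also the 2 whose groups did not overlap, a pattern seen for 7.36% of all genes.

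**Figure D1:**
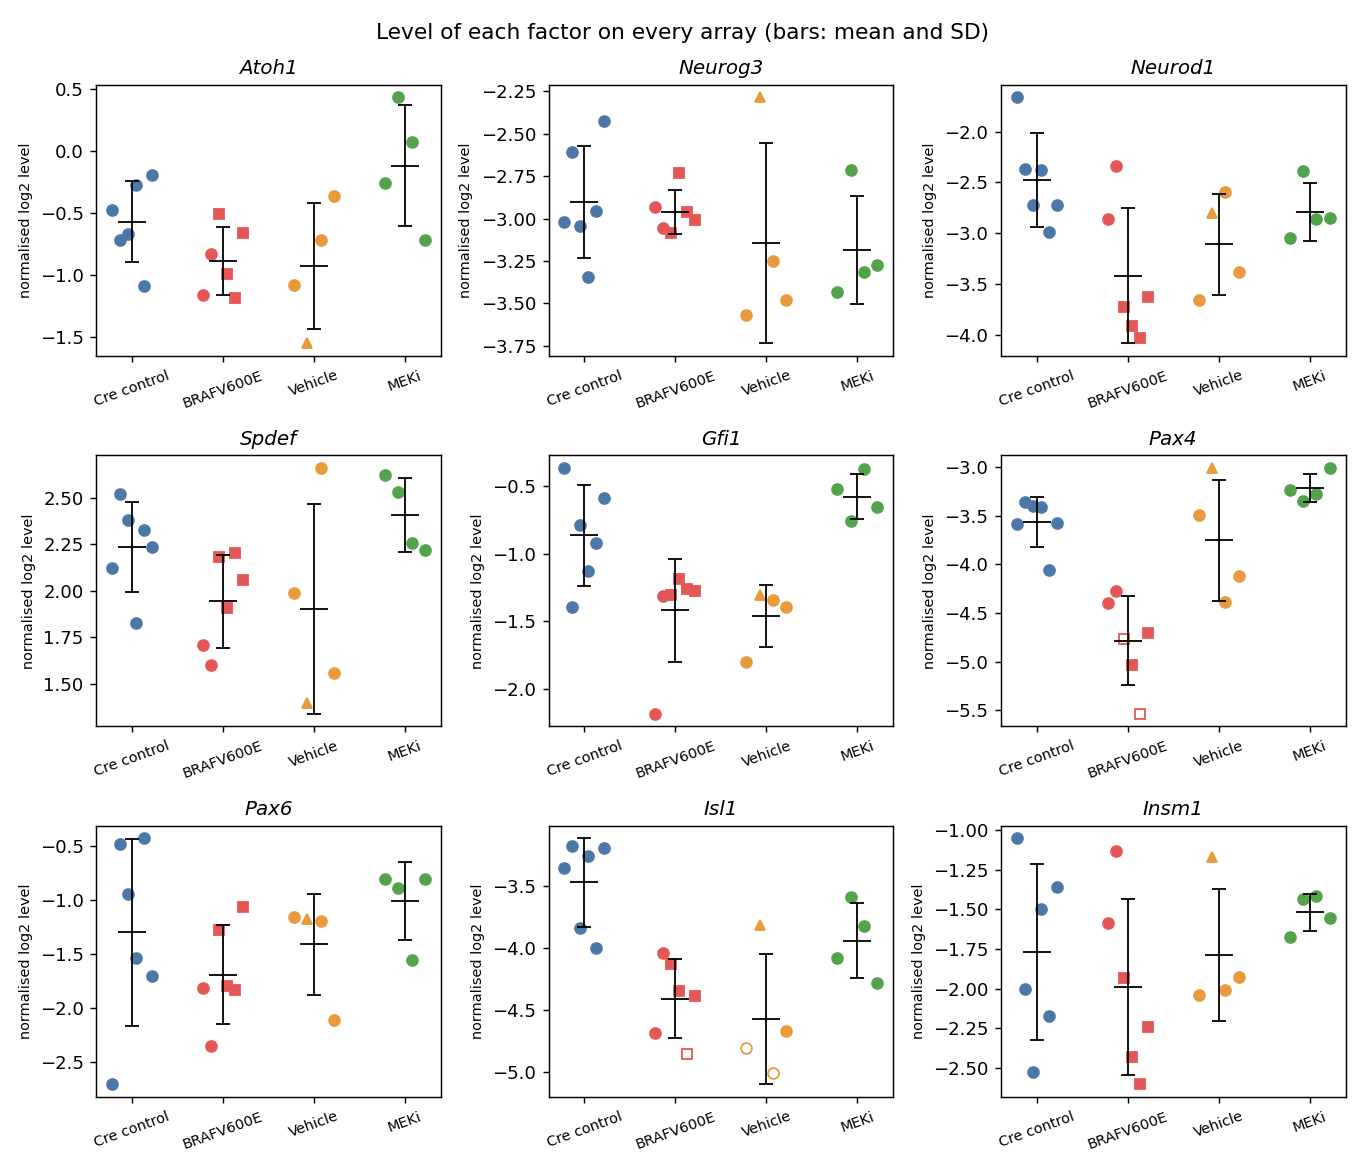
Normalised log2 level (vertical axis, log2 processed signal minus the array's 75th percentile) of the probe that stands for each factor, by group, 1 point per array, with mean and SD. Squares mark BRAFV600E arrays of slide 2, the triangle marks Vehicle replicate 2, and open symbols mark arrays on which the probe was not well above background. All 6 BRAFV600E arrays lie below all 6 Cre control arrays for Pax4 and Isl1, and all 4 MEKi arrays lie above all 4 Vehicle arrays for Gfi1.

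Pax4 encodes a paired homeodomain repressor that favours the serotonin- and somatostatin-producing enteroendocrine cells. Its level ran from −4.06 to −3.36 with a median of −3.49 in Cre control, and from −5.54 to −4.28 with a median of −4.73 in BRAFV600E. Every mutant array lay below every control array. On the log2 scale Pax4 fell by 1.22 (SE 0.21, limma adjusted p 0.00388), which is 2.33-fold. Its probe (chr6:28392356-28392415) was well above background on 4 of 6 BRAFV600E arrays and on all 6 controls.

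Isl1 encodes a LIM homeodomain factor of several hormone-producing cell types. Its level ran from −4.00 to −3.18 with a median of −3.31 in Cre control, and from −4.86 to −4.04 with a median of −4.37 in BRAFV600E. The groups again did not overlap, although the nearest arrays were close. Isl1 fell by 0.94 (SE 0.19, limma adjusted p 0.0101), or 1.91-fold. A second Isl1 probe, near the other end of the gene (chr13:117099604-117099663), was well above background on 3 of 6 Cre control arrays and on 0 of 6 BRAFV600E arrays, too dim for a bound on the fold.

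Whether Pax4 and Isl1 were called depended on how slide was handled. On slide 1 the 2 BRAFV600E arrays averaged −4.34 for Pax4 and −4.37 for Isl1. Their place below the Cre control arrays follows from the lack of overlap given above, since all Cre controls lay on slide 1. It is not separate support. The differences within slide 1 were −0.77 for Pax4 (limma adjusted p 0.0986) and −0.89 for Isl1 (limma adjusted p 0.138), and with slide as a block the limma adjusted p was 0.0744 for Pax4 and 0.0735 for Isl1. Neither gene was called in those fits, which rest on 2 mutant arrays. Using only the 4 BRAFV600E arrays of slide 2, an alternative chosen after seeing the data, the difference was −1.45 for Pax4 and −0.96 for Isl1, and both were called. In that fit 7.84% of all genes were called. Transcripts of enteric neurons moved with the same groups: 4 of 10 tested were called lower and 0 higher, with 6 of 10 lower at an unadjusted p under 0.05, and the mean level of the 11-gene list ran from −2.36 to −1.79 in BRAFV600E and from −1.64 to −1.25 in Cre control. With slide as a block 1 of the 10 was called lower and within slide 1 none was called by limma, with 3 lower at an unadjusted p under 0.05 in each fit.

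Markers of other cells outside the epithelium moved too. Of the enteric glia genes 2 of 4 were called lower, and the list's mean level ran from −3.32 to −2.92 in BRAFV600E and from −2.89 to −2.13 in Cre control, without overlap. Of the T lymphoid genes 3 of 9 were called lower (Cd3g, Lck and Cd8a), with a mean level of −0.18 to 1.05 against 0.54 to 1.39. Of the myeloid genes 2 of 7 were called lower, with a mean level of 1.72 to 3.41 against 2.46 to 4.58, and of the B lymphoid genes 1 of 6. Of the smooth muscle genes 2 of 7 were called higher, Actg2 and Des. With slide as a block the called genes numbered 1 for glia, 5 for T lymphoid, 2 for myeloid, 0 for B lymphoid and 1 for smooth muscle. Within slide 1 they numbered 0, 3, 1, 0 and 0 in the same order. With only the mutant arrays of slide 2 they numbered 2, 0, 2, 1 and 2. Without BRAFV600E replicate 2 they numbered 1, 0, 2, 1 and 2. At an unadjusted p under 0.05 in limma, those last 2 fits had 3 and 4 of 9 T lymphoid genes lower, and 1 and 0 higher. The part of these cells and of enteric neurons in the results for the 9 factors was not tested.

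Neurod1, a helix-loop-helix factor that follows Neurog3, had a mean level of −2.47 ± 0.46 (SD, n = 6) in Cre control and −3.42 ± 0.67 (n = 6) in BRAFV600E. The difference of −0.94 (95% interval −1.61 to −0.28) did not pass (limma adjusted p 0.0615). Neurod1 was nevertheless called lower in 5 of 23 alternatives: with normexp background correction, with array weights, with Y-linked signal as a covariate, with the mutant arrays of slide 2 only, and without BRAFV600E replicate 2. In the same order, those 5 fits called 24.4%, 19.7%, 9.43%, 7.84% and 8.92% of all genes. Over all 23 the limma adjusted p of Neurod1 ran from 0.00868 to 0.848. The mutant arrays separated by slide. Both on slide 1, at −2.86 and −2.34, lay within the control range of −2.99 to −1.66, and all 4 on slide 2, between −4.03 and −3.63, lay below it. The difference from Cre control was −0.13 on slide 1 and −1.35 with the mutant arrays of slide 2, where slide and group cannot be told apart.

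Insm1, a zinc-finger factor of endocrine differentiation, showed the same split. It had a mean of −1.77 ± 0.56 (SD, n = 6) in Cre control and −1.99 ± 0.56 (n = 6) in BRAFV600E, a difference of −0.22 (95% interval −0.87 to 0.43, limma adjusted p 0.667). On slide 1 the mutant arrays lay above the control mean by 0.41, and those of slide 2 differed from it by −0.53. The direction of Insm1 thus differed between the slides.

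Neurog3, the factor that opens the endocrine programme, had nearly equal means of −2.90 ± 0.33 (SD, n = 6) in Cre control and −2.96 ± 0.13 (n = 6) in BRAFV600E. The interval of the difference, −0.40 to 0.28, leaves out a change as large as those fitted for Pax4 and Isl1. That holds only for the probe that stands for the gene and for this scaling. A second Neurog3 probe was not well above background on any of the 20 arrays.

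Pax6, a paired homeodomain factor of glucagon- and GIP-producing cells, varied most among controls, from −2.71 to −0.43. Its difference was −0.39 (95% interval −1.19 to 0.41, limma adjusted p 0.514). The probe that stands for it was well above background on all 20 arrays. The probe for the form with exon 5a passed on 1 of 6 Cre control arrays and nowhere else, and the probe for the form without it passed on no array, so the share of the 2 forms could not be read.

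Of the factors that act in goblet and Paneth cells, Gfi1 came nearest to the threshold. The Gfi1 level, of a zinc-finger repressor that keeps secretory progenitors from the endocrine path, ran from −1.40 to −0.37 with a median of −0.86 in Cre control and from −2.19 to −1.19 with a median of −1.29 in BRAFV600E. The difference was −0.56 (95% interval −1.01 to −0.10, limma adjusted p 0.0996). The second Gfi1 probe was well above background on 3 of 6 Cre control arrays and on 0 of 6 BRAFV600E arrays, too dim for a bound on the fold. Spdef, an ETS factor of goblet and Paneth maturation, had means of 2.24 ± 0.24 (SD, n = 6) in Cre control and 1.94 ± 0.25 (n = 6) in BRAFV600E, a difference of −0.29 (95% interval −0.62 to 0.04, limma adjusted p 0.221).

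Atoh1, at the head of the secretory programme, had means of −0.57 ± 0.33 (SD, n = 6) and −0.89 ± 0.27 (n = 6) in the same order. The difference of −0.32 (95% interval −0.71 to 0.07) did not pass (limma adjusted p 0.248). The interval holds both no difference and a fall of up to 0.71, so a fall of that size cannot be set apart from none here.

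**Figure D2:**
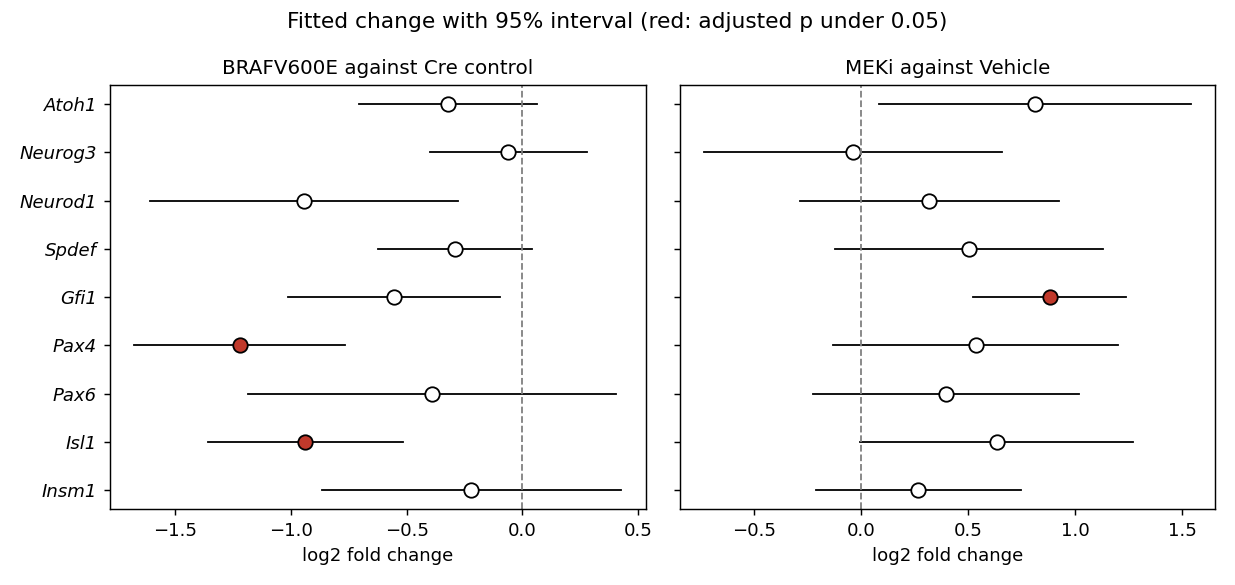
Fitted log2 fold change of each factor (horizontal axis) in BRAFV600E against Cre control (left) and MEKi against Vehicle (right), with its 95% interval from limma; red points have an adjusted p under 0.05. Pax4 and Isl1 are red on the left at −1.22 and −0.94, and Gfi1 is red on the right at 0.88.

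In MEKi against Vehicle, which asks what inhibition of MEK changes, Gfi1 rose and no other factor was called. Of the 9, 1 was called higher and 0 lower by limma, with 2 at an unadjusted p under 0.05, both higher, against 16.4% of all genes in either direction. Among the 19224 genes tested, 1.09% were called higher and 0.884% lower, 1.98% in all. The fitted change was above 0 for all factors except Neurog3, and 54.7% of all genes were fitted higher and 45.3% lower. The median over the 9 was 0.50 against 0.04 over all genes tested.

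Gfi1 stood at −1.80, −1.30, −1.34 and −1.39 on the 4 Vehicle arrays and at −0.53, −0.76, −0.37 and −0.66 on the 4 MEKi arrays. All MEKi arrays lay above all Vehicle arrays, as was the case in 1 direction or the other for 12.2% of all genes. Gfi1 rose by 0.88 (SE 0.16, limma adjusted p 0.0337), or 1.84-fold. Without Vehicle replicate 2 the rise was 0.93 (limma adjusted p 0.0432). Leaving out MEKi replicates 1, 3 or 4 or Vehicle replicates 1, 3 or 4 moved the adjusted p to between 0.0675 and 0.113, with rises of 0.77 to 0.92. Y-linked signal differed between these groups. The mean level of the 4 Y-linked genes was −1.29 to −0.96 on all 4 MEKi arrays. In Vehicle it was −1.21 and −1.24 on replicates 1 and 3, but −5.94 and −6.25 on replicates 2 and 4. By this signal all MEKi mice were male, and the Vehicle mice were of both sexes. The median log2 difference of the 4 Y-linked genes was 2.74, with none called by limma (1 at an unadjusted p under 0.05). With their mean level as a covariate Gfi1 was higher by 1.00 (limma adjusted p 0.0963). Gfi1 also acts in lymphoid cells, and markers of T lymphoid cells were read beside it. Of 9, all well above background on every array, 0 were called by limma and 5 were higher at an unadjusted p under 0.05, with a mean level of 0.34 to 1.31 in MEKi and of −0.33 to 0.42 in Vehicle. Their part in the Gfi1 result was not tested. The second Gfi1 probe, printed above, stayed dim on slide 3, well above background on 0 of its 8 arrays.

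Atoh1 followed, at −1.08, −1.56, −0.72 and −0.37 on the Vehicle arrays and at −0.26, 0.43, 0.07 and −0.72 on the MEKi arrays. The groups overlapped, with 3 of 4 MEKi arrays above the highest Vehicle array. The difference was 0.81 (95% interval 0.08 to 1.54, limma adjusted p 0.253), and 0.60 without Vehicle replicate 2 (limma adjusted p 0.369). Spdef differed by 0.50 (95% interval −0.12 to 1.13, limma adjusted p 0.422).

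Of the endocrine factors, 4 were highest of their group on Vehicle replicate 2, the array with pancreatic transcripts: Pax4 at −3.01, Isl1 at −3.81, Insm1 at −1.17 and Neurog3 at −2.28. Neurod1, at −2.80, and the probe that stands for Pax6, at −1.17, were not the highest there. Another Pax6 probe (chr2:105524641-105524700) was well above background on Vehicle replicate 2 and on no other array. It stood at −2.45 there, against −7.85 to −6.72 on the other Vehicle arrays. The part of the pancreatic transcripts in these values was not tested. With all arrays the differences were 0.54 for Pax4, 0.63 for Isl1, 0.27 for Insm1 and −0.04 for Neurog3. Without that array they were 0.78, 0.89, 0.47 and 0.25, with limma adjusted p of 0.138, 0.0745, 0.114 and 0.601. All 4 MEKi arrays then lay above the remaining 3 Vehicle arrays for Pax4, Isl1 and Insm1, but none of the 3 was called. The share of all genes without overlap in that split was not computed, so this pattern has no background to be read against. Leaving that array out changed no call among the 9 factors.

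Isl1 was measured least securely here, since its probe was well above background on 4 of 4 MEKi arrays and 2 of 4 Vehicle arrays. Neurod1 differed by 0.32 (95% interval −0.28 to 0.92, limma adjusted p 0.619) and Pax6 by 0.40 (95% interval −0.23 to 1.02, limma adjusted p 0.539). Both intervals hold 0.

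Set side by side, Cre control and MEKi held the upper 2 of the 4 group means for 8 of 9 factors, Neurog3 being the exception, and for 19.5% of the 18352 genes that passed the filter in both comparisons. The 2 experiments lay on different slides and differed in tamoxifen dosing, so no test was made across them. In the order of their means, neighbouring groups overlapped in 26 of 27 pairs, and over all those genes in 96% of pairs. The exception was Pax4, whose lowest MEKi array, at −3.35, lay just above the highest Cre control array, at −3.36, on different slides.

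Of 23 other transcription factors of secretory cells tested in BRAFV600E, 9 were called lower and 1 higher. The 1 higher was Creb3l1, a factor of secretory capacity, by 0.58 (limma adjusted p 0.0253). The largest falls were in Myt1, a zinc-finger factor of endocrine progenitors, by 1.54 (SE 0.20, limma adjusted p 6.48e-04), in Lmx1a, of serotonin-producing cells, by 1.30 (SE 0.23, limma adjusted p 0.00412), and in Bhlha15, a helix-loop-helix factor of mature secretory cells, by 1.23 (SE 0.18, limma adjusted p 0.00128). When slide was fitted as a block, 3 of the 23 were called lower (Myt1, Bhlha15 and St18) and 1 higher (Foxa1). Within slide 1 the 2 called lower were Myt1 and Bhlha15. The group difference in both fits comes from the same mutant arrays, BRAFV600E replicates 1 and 2. In MEKi 0 of 22 tested were called by limma, with 5 higher and 1 lower at an unadjusted p under 0.05. Without Vehicle replicate 2 Myt1 was called higher, by 1.20 (limma adjusted p 0.0327).

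Of 14 genes of the Notch pathway, which restrains Atoh1, 2 were called lower and 1 higher in BRAFV600E. Hes5, a repressor induced by Notch, fell by 1.80 (SE 0.49, limma adjusted p 0.0332) and the ligand Dll4 by 0.67 (SE 0.13, limma adjusted p 0.0062). The ligand Dll1, made by secretory progenitors, rose by 0.56 (SE 0.14, limma adjusted p 0.0260). Of the 14, Dll4 alone was called with slide as a block and within slide 1, at −0.88 in each (limma adjusted p 0.0064 and 0.0221). Both fits take that difference from the same 2 mutant arrays of slide 1, so they are not separate checks. Hes1, the repressor that acts on Atoh1 directly, differed by 0.07 (limma adjusted p 0.827). In MEKi 0 of 14 were called by limma, with 2 higher at an unadjusted p under 0.05.

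Among the products of the secretory cells, Paneth products had 9 of 10 tested lower in BRAFV600E, where Defa21 fell by 3.63, Mptx1 fell by 3.61 and Mptx2 fell by 3.40, although alpha-defensin probes can bind transcripts of near-identical copies. Goblet products had 3 of 8 lower and 1 higher, where Zg16 fell by 0.93, Muc2 by 0.82 and Tff3 by 0.80, and Agr2 rose by 0.54. Enteroendocrine products had 8 of 22 lower and 3 higher: the granule protein Resp18 fell by 2.06 and Chga by 1.99, whereas the hormone Pyy rose by 1.99, Vgf by 0.92 and Tac1 by 0.74. Tuft products had 2 of 8 lower, Rgs13 by 1.25 and Trpm5 by 0.62. The adjusted p of every gene named so far in this paragraph was under 0.05 in limma. In the fit with slide as a block 10 of 10 Paneth and 5 of 8 goblet products were called lower and none of either higher, Agr2 losing its call, and 5 of 22 enteroendocrine products were called lower and 3 higher (Pyy, Tac1 and Tph1). Within slide 1 these counts were 9 of 10, 2 of 8 and 6 of 23 lower, with none higher. Both fits take the group difference from BRAFV600E replicates 1 and 2. With only the mutant arrays of slide 2 the counts were 7 of 10, 0 of 8 and 9 of 23 lower. At an unadjusted p under 0.05 in limma, 4 of 8 goblet products were then lower and 1 higher. Without BRAFV600E replicate 2 the counts were 8 of 10, 2 of 8 and 8 of 22 lower. In each of these, 3 enteroendocrine products were called higher, and no Paneth or goblet product. No tuft product was called by limma with slide as a block or within slide 1. At an unadjusted p under 0.05, 4 and 3 of 8 were lower there.

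In MEKi none of these products was called by limma. At an unadjusted p under 0.05, 4 of 8 goblet, 2 of 10 Paneth, 7 of 23 enteroendocrine and 0 of 8 tuft products were higher, and 1 enteroendocrine product was lower. Without Vehicle replicate 2, 3 enteroendocrine products were called higher: Gcg by 1.27, Sst by 0.83 and Ucn3 by 2.23. These 3 are named because they were the called ones in that fit. In the same fit 1 of 3 distal small intestine genes was called lower. The part of gut position in these results was not tested.

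**Figure D3:**
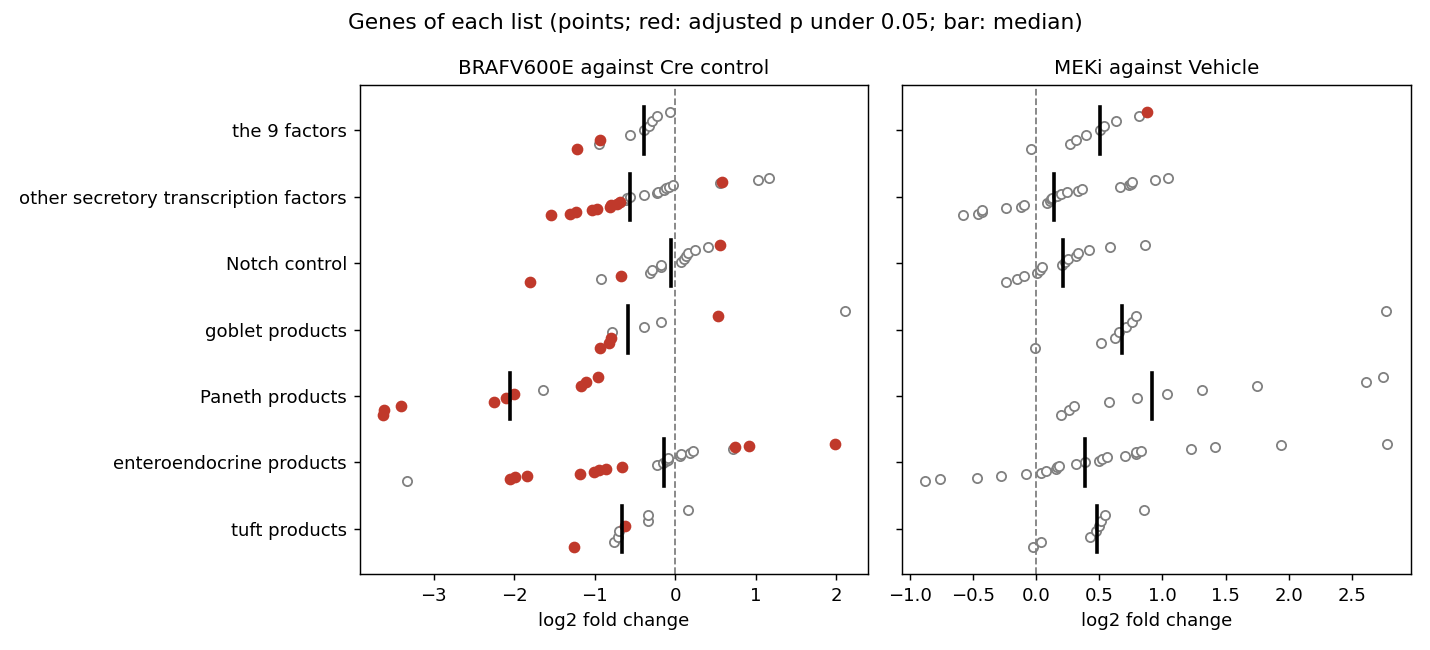
Log2 fold change (horizontal axis) of every tested gene in 7 lists for both comparisons, with the list's median as a bar and genes with a limma adjusted p under 0.05 in red. On the left the 9 factors have a median of −0.39 and Paneth products −2.05; on the right Gfi1 is the single red point.

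The 3 genes most alike to each factor were ranked by Pearson r over the 20 arrays after each group mean was subtracted, among 17503 genes, and the first of each is named. They were Inhbb for Pax4 (Pearson r 0.90, Spearman rho 0.89), Ptprn2 for Isl1 (0.84 and 0.83), Tars for Gfi1 (0.77 and 0.82) and Camk2d for Atoh1 (0.86 and 0.86). The others were Pikfyve for Pax6 (0.95 and 0.95), Far2 for Insm1 (0.92 and 0.92), Zdhhc18 for Spdef (0.89 and 0.85), Plxna2 for Neurod1 (0.83 and 0.74) and Krtap12-1 for Neurog3 (0.91 and 0.80). These are descriptions: the points share arrays, slides and scaling, and each is the highest of many.

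Promoters were examined for E-boxes because 3 of the 9 factors are helix-loop-helix proteins. RefSeq windows (GRCm38.p6) of the 250 bases before the start were at hand for 7 of the 9. The motif CANNTG, which reads the same on both strands, occurred in 66.2% of 32851 such windows, and CAGCTG, one form of it, in 13.0%. Isl1, which fell, and Neurog3, which did not pass the test, each held 1 CAGCTG, starting 103 and 165 bases before the start. Each Gfi1 window, the Neurod1 window and 1 Pax6 window held 1 CANNTG of another form. The windows of Atoh1 and Spdef and the other Pax6 window held none. Isl1 and Neurog3 are printed with E-boxes in capitals.
Isl1, chr13:116309689-116309938, minus strand: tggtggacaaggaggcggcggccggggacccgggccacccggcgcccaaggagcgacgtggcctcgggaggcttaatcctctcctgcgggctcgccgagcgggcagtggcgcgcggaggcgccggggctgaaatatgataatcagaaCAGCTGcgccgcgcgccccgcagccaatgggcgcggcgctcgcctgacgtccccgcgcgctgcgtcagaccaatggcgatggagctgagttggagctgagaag
Neurog3, chr10:62132840-62133089, plus strand: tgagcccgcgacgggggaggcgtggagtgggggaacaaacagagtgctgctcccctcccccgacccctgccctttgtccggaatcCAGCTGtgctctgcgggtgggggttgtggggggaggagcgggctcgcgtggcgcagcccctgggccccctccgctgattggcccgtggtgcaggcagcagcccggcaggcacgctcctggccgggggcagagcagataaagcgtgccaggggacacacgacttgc

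**Figure D4:**
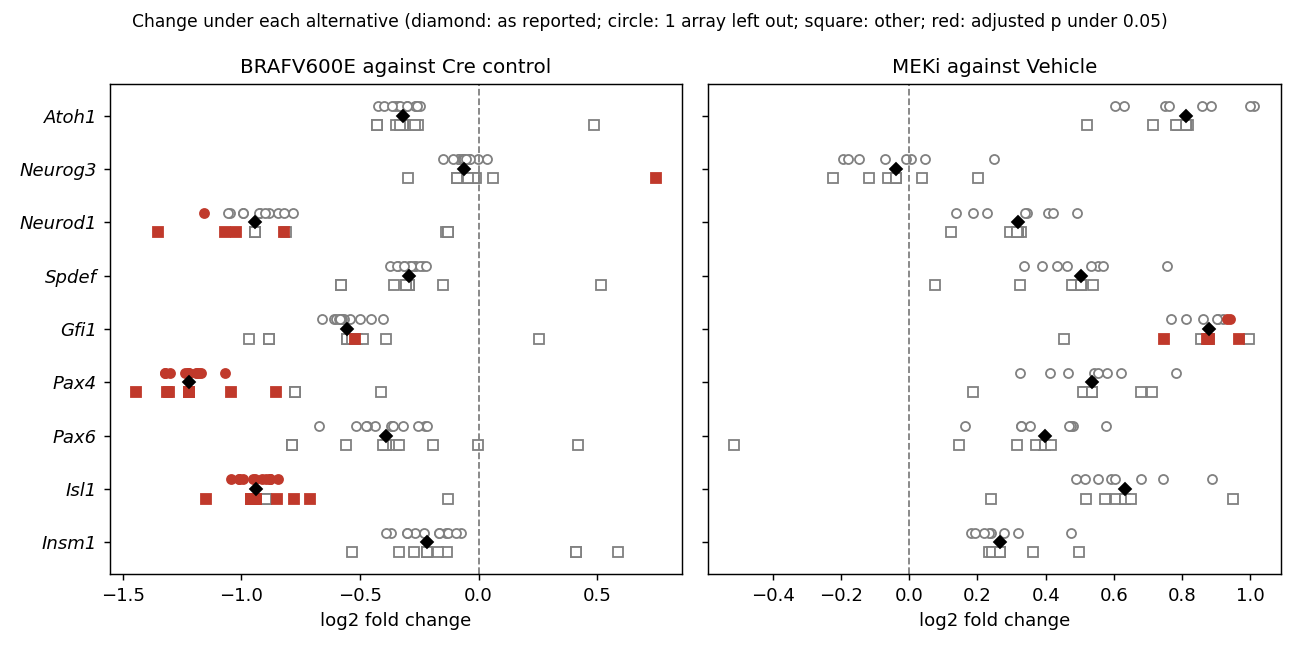
Log2 fold change (horizontal axis) of each factor under every alternative, for both comparisons: black diamonds as reported, circles with 1 array left out, squares other settings, circles and squares red where the limma adjusted p is under 0.05. Pax4 and Isl1 keep their direction on the left, and Gfi1 on the right stays above 0 in all settings but is red in only some.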

How the data were processed

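The arrays were 1-colour Agilent SurePrint G3 Mouse arrays. Per the file headers, extraction by the authors used Agilent Feature Extraction 10.5.1.1, with background subtraction and detrending. The deposited values are linear intensities per spot (processed signal, mean signal and local background), not normalized between arrays. The deposited files also hold marks (unit "other") for spots well above background or outlying. The authors' series matrix repeats the processed signal and was not used.

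Groups came from the source names. The labels' treatment text is the same for every array, fits no group and was not used. P-values measure the spread between these arrays, 1 per mouse. Control spots and spots marked as outliers were not used. Levels are log2 processed signal minus the 75th percentile of that array. Probes were named through the array design and RefSeq (GRCm38.p6, names only), giving 25027 symbols; of 56605 probes, 12271 stayed unnamed. The probe with the highest mean stood for a gene. Testing required a probe well above background on 6 or more of 12 arrays, or 4 or more of 8. Between 60.8% and 76.8% of spots were well above background on an array, and none was saturated; precision is limited by how many arrays there are. The comparisons were fitted separately in limma 3.58.1 (lmFit, eBayes, R 4.3.3), without covariates, and two-sided p-values were adjusted by the Benjamini-Hochberg method over all genes tested. The fit was tested on simulated data.

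The genes and lists were chosen with earlier results of these data known. Text names every one of the 9 factors, up to 3 called genes with the largest change per list, any called gene where a count is 5 or fewer, and the genes of highest correlation. Alternatives were normexp background correction (offset 50), quantile or no scaling, no filter, every probe, the median over probes, array weights, Y-linked signal as a covariate, slide as a block, within slide 1, slide 2 mutant arrays only, and leaving out each array. Exons and UTRs were not analysed here beyond the probes described.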

Additional observations from a re-analysis of the deposited data

Results flagged for a closer look

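In 36 sets of arrays (9 factors in 4 groups), the highest or lowest array stood apart from the rest of its group in 5, where chance flags about 1 in 20. Gfi1 on BRAFV600E replicate 1 was −2.19, with the next array at −1.31. Pax4 on Cre control replicate 5 was −4.06, with the next at −3.59, and it lay above all BRAFV600E arrays. Pax6 on MEKi replicate 3 was −1.55, with the next at −0.89, and on Vehicle replicate 4 it was −2.11, with the next at −1.19. Insm1 on Vehicle replicate 2, the array with pancreatic transcripts, was −1.17, with the next at −1.92.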

How the results depend on the processing

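In BRAFV600E against Cre control the count of called factors moved from 2 to 4 with normexp (Gfi1 and Neurod1 added), to 1 (Neurog3) with no scaling between arrays, and to 0 with slide as a block and within slide 1, where 4 factors had an unadjusted p under 0.05 in limma in each fit. The share of all genes called moved as well, from 12.4% to 24.4% with normexp, 49.0% with no scaling, 8.06% with slide as a block and 3.83% within slide 1. Leaving out 1 array at a time gave 2 to 3, with Pax4 and Isl1 called each time. In those fits 7.68% to 15.4% of all genes were called. With no scaling the median of all genes was 0.79, and the fitted changes were 0.49 for Atoh1, 0.75 for Neurog3, 0.52 for Spdef, 0.25 for Gfi1, 0.42 for Pax6 and 0.59 for Insm1; relative to that median all 9 factors lay lower. Insm1 was 0.41 with slide as a block and within slide 1. Neurog3 was 0.062 with quantile normalization and ran from −0.15 to 0.035 with 1 array left out, above 0 without Cre control replicate 6.

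In MEKi against Vehicle the count moved from 1 to 0 with no scaling, with no filter, with the median over probes and with Y-linked signal as a covariate, where 1, 2, 2 and 2 factors had an unadjusted p under 0.05 in limma. The share of all genes called fell there from 1.98% to 0.385%, 0.935%, 1.12% and 0.276%. Leaving out 1 array gave 0 to 1, and Gfi1 was still called without MEKi replicate 2 or Vehicle replicate 2. Those leave-one-out fits called 0.441% to 1.96% of all genes, with 1.96% and 1.78% in the 2 where Gfi1 was called. Over all alternatives the change of Gfi1 ran from 0.46 to 1.00 and its limma adjusted p from 0.0106 to 0.426. Pax6 was −0.51 with the median over probes. Neurog3 was 0.038 with array weights, 0.20 with the Y-linked covariate and −0.19 to 0.25 with 1 array left out, including 0.045 without MEKi replicate 1, 0.0062 without MEKi replicate 3 and 0.25 without Vehicle replicate 2. The causes were not tested. No paired analysis was possible because replicate numbers only name the arrays. Dim probes limit what can be read for Isl1, Pax4 and the second probes of Gfi1, Pax6 and Isl1.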
